A study of Rattus norvegicus with 10 samples.

Results

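The 10 genes followed here serve as markers of the thalamus and were traced by symbol through the hippocampal libraries: Tcf7l2, Lef1, Slc17a6, Prkcd, Rora, Zic1, Lhx9, Ramp3, Synpo2 and Rgs16. The thalamus lies directly beneath the hippocampus, so these genes stand for neighbouring tissue in the dissection. Of the 10 genes, 9 were matched by symbol among the 17168 genes of the deposited tables, and Rora was not analysed here. All 9 passed the filter on low counts and were among the 12161 genes tested. Each library was made from the left hippocampus of 1 male TgF344-AD rat killed at 11 months of age. These rats carry mutant human amyloid precursor protein and presenilin transgenes driven by the mouse prion promoter. The 5 untreated rats ate rodent chow, and the 5 RG2833 rats ate chow that held 750 mg of RG2833 per kg, from 5 months of age for 6 months. RG2833 inhibits the histone deacetylases HDAC1 and HDAC3. A sentence of the design text names ibudilast as the drug; the labels of the samples name RG2833 and were followed. All 10 rats carry the transgenes, so the comparison is of drug with no drug within the model.

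Excitatory neurons of the thalamus relay sensory and motor signals to the cortex, and, unlike hippocampal pyramidal and granule cells, they load glutamate mainly with the transporter VGLUT2, the product of Slc17a6. Their identity in the adult is held by Tcf7l2, a transcription factor that acts with beta-catenin at the end of the Wnt pathway. Several of the genes are not restricted to the thalamus: Lef1 is also made by brain endothelium, Zic1 by the meninges and septum, Tcf7l2 by newly formed oligodendrocytes and astrocytes, and Synpo2 by smooth muscle.

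No marker passed the comparison of RG2833 with untreated rats. In edgeR's quasi-likelihood test, 0 of the 9 had an adjusted p under 0.05, against 0% of all genes tested; 0 did in DESeq2 and 0 in limma-voom. At an unadjusted p under 0.05 there was 1 marker, Zic1, where 5.66% of all genes had such a p: 1 of 9 was lower in RG2833 rats, against 2.71% of all genes, and 0 of 9 higher, against 2.94%. Between the 2 groups the values overlapped for all 9 markers, and 1% of all genes had groups that did not overlap. The log2 fold change was below 0 for 7 markers and above 0 for 2, with a median of -0.21. With single libraries left out, that median ran from -0.28 to -0.07, the latter without untreated replicate 4. Over all genes tested 53.5% were below 0 and the median was -0.01. In bulk tissue, fewer cells of a type and less RNA per cell cannot be told apart. Levels are given as CPM, a read count divided by the TMM-scaled library size, and ± is the SD with n = 5 rats in each group.

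**Figure D1:**
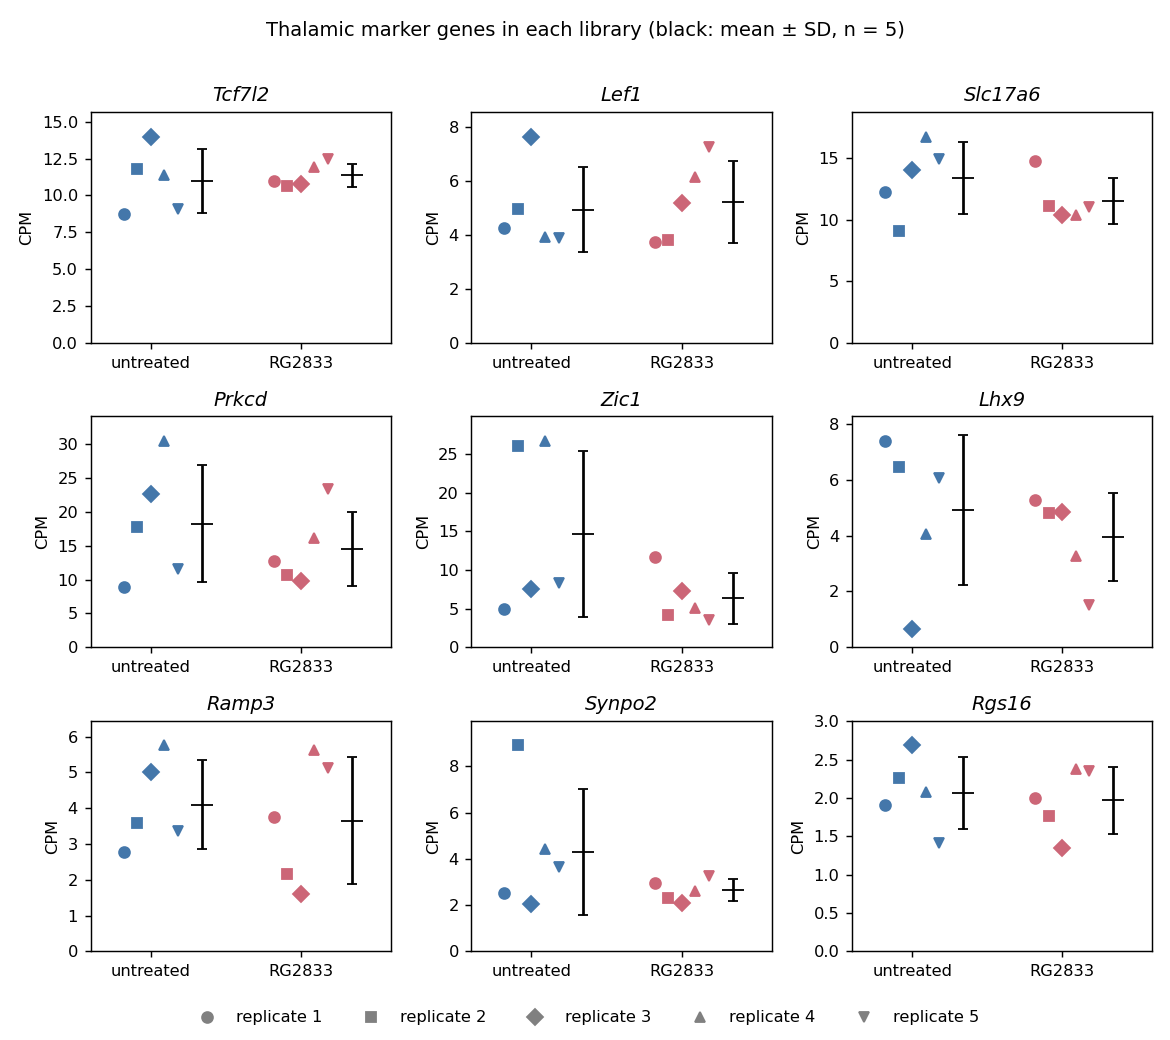
Level of 9 thalamic marker genes in each library, in CPM on a linear axis from 0, with untreated rats in blue and RG2833 rats in red. Symbols number the replicates and the black marks give the mean ± SD of 5 rats; the groups overlap in every panel, and Zic1 is high in untreated replicates 2 and 4 (26.1 and 26.7 CPM).

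Of the 9 markers, Tcf7l2 varied least between rats, with a coefficient of variation of 13.8% over the 10 libraries. It stood at 8.71, 11.8, 14.0, 11.4 and 9.07 CPM in untreated replicates 1 to 5 and at 11.0, 10.6, 10.8, 11.96 and 12.5 CPM in RG2833 replicates 1 to 5. The RG2833 values all lay inside the untreated range, and the extremes of the series were untreated replicate 3 at the top and untreated replicate 1 at the bottom. Untreated rats averaged 11.0 ± 2.15 CPM and RG2833 rats 11.4 ± 0.80, and the log2 fold change was 0.05 (SE 0.13; 95% interval -0.24 to 0.34; edgeR adjusted p = 0.980).

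Lef1, the lymphoid relative of Tcf7l2 that binds the same DNA core, was at 4.27, 4.97, 7.64, 3.92 and 3.91 CPM in untreated replicates 1 to 5. In RG2833 replicates 1 to 5 it was at 3.74, 3.81, 5.18, 6.14 and 7.26 CPM. High values thus occurred in both groups, in untreated replicate 3 and in RG2833 replicates 4 and 5. Its log2 fold change was 0.08 (SE 0.24; 95% interval -0.46 to 0.62; edgeR adjusted p = 0.982), and it was -0.065 without RG2833 replicate 5.

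Zic1, a zinc finger factor of the medial thalamus, had the largest fold change of the 9 in size and the largest coefficient of variation, 82.8% over the 10 libraries. Untreated replicates 1 to 5 were at 4.91, 26.1, 7.52, 26.7 and 8.25 CPM, and RG2833 replicates 1 to 5 at 11.7, 4.15, 7.23, 5.07 and 3.53 CPM. Untreated replicates 2 and 4 were higher than every other library, while the other 3 untreated libraries fell within the RG2833 range. Untreated rats averaged 14.7 ± 10.8 CPM and RG2833 rats 6.33 ± 3.30, a log2 fold change of -1.22 (SE 0.52; edgeR adjusted p = 0.841). Each of the 5 RG2833 libraries was under that untreated average. A two-sided exact permutation test of log2 CPM gave p = 0.135. With single libraries left out it ran from -1.56 (without RG2833 replicate 1) to -0.89 (without untreated replicate 4), and in 6 of those 10 fits the unadjusted p was above 0.05, as it was in limma-voom and with the replicate number as a block.

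Zic1 overlaps its neighbour Zic4 in the GRCr8 assembly, which is not the rn6 build named for the counts. The labels do not say whether reads were counted by strand, so reads shared by these 2 genes are uncertain. The expected counts of both genes were whole numbers in all 10 libraries. Zic4 was at 4.66 and 5.02 CPM in untreated replicates 2 and 4 and from 0.239 to 1.81 CPM in the other 8 libraries. Zic2, on another chromosome, was at 54.8 and 44.7 CPM in the same pair and from 18.4 to 30.9 CPM elsewhere. These were picked after their values were seen. The same pair of untreated libraries was thus the highest for 3 genes of the Zic family.

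Lhx9, a LIM homeodomain factor of the developing thalamus, ran opposite to Lef1 and Tcf7l2. It was at 7.39, 6.45, 0.657, 4.04 and 6.08 CPM in untreated replicates 1 to 5 and at 5.29, 4.83, 4.86, 3.26 and 1.52 CPM in RG2833 replicates 1 to 5. Its lowest library, untreated replicate 3, held 11 counts (exact 95% Poisson interval 5.49 to 19.7, counting error only), against 128 in untreated replicate 1 (107 to 152). Between the groups the log2 fold change was -0.32 (SE 0.51; edgeR adjusted p = 0.958), and with single libraries left out it ran from -0.59 (without untreated replicate 3; edgeR adjusted p = 0.410) to -0.11 (without RG2833 replicate 5). Untreated replicate 3 was also the lowest library for Prox1, the factor that defines dentate granule cells, with 4.30 CPM against 21.5 to 50.5 CPM in the others. The same library was lowest for the mean log2 CPM of the CA3 and CA2 genes. It was also lowest for Slc17a7, the glutamate transporter of hippocampal neurons, with 1029 CPM against 1098 to 1917 CPM in the others. Prox1, Slc17a7 and that list were set beside Lhx9 after their values were seen. The part of dentate tissue or of other hippocampal fields in the Lhx9 value was not tested.

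Among the genes of transmission and signalling, Slc17a6 was at 12.2, 9.07, 14.0, 16.7 and 14.9 CPM in untreated replicates 1 to 5. In RG2833 replicates 1 to 5 it was at 14.8, 11.1, 10.4, 10.4 and 11.0 CPM. RG2833 replicate 1 stood above the other 4 of its group, and untreated replicate 2 below the other 4 of its own. Untreated rats averaged 13.4 ± 2.91 CPM and RG2833 rats 11.5 ± 1.85, a log2 fold change of -0.21 (SE 0.16; edgeR adjusted p = 0.902; exact permutation p = 0.318). The libraries that broke the order are the same ones in which choroid plexus RNA was abundant: Ttr, the transthyretin of that epithelium, was at 6929 CPM in untreated replicate 2 and 8190 CPM in RG2833 replicate 1, and at 3.11 to 236 CPM in the other 8. Without those libraries, untreated values ran from 12.2 to 16.7 CPM and RG2833 values from 10.4 to 11.1 CPM, with no overlap; in that set of 4 against 4, in which the pair that broke the order is left out, 3.14% of all genes, and 1 of the 9 markers, had groups that did not overlap. The log2 fold change was then -0.44 (SE 0.11), which did not pass over all genes (edgeR adjusted p = 0.947). When single libraries were left out, it ran from -0.33 (without untreated replicate 2) to -0.12 (without untreated replicate 4). The part of choroid plexus tissue in these 2 Slc17a6 values was not tested.

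Prkcd, the delta isoform of protein kinase C that fills relay neurons, ranged 3.41-fold over the libraries. It was at 8.94, 17.8, 22.7, 30.5 and 11.5 CPM in untreated replicates 1 to 5 and at 12.7, 10.7, 9.85, 16.2 and 23.4 CPM in RG2833 replicates 1 to 5. Untreated replicate 4 was the highest, followed by RG2833 replicate 5 and untreated replicate 3. Its log2 fold change was -0.33 (SE 0.34; edgeR adjusted p = 0.925), and with single libraries left out it ran from -0.56 (without RG2833 replicate 5) to -0.06 (without untreated replicate 4).

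Ramp3, the accessory protein that turns the calcitonin and calcitonin-like receptors into adrenomedullin and amylin receptors, was at 2.77, 3.59, 5.01, 5.76 and 3.37 CPM in untreated replicates 1 to 5. In RG2833 replicates 1 to 5 it was at 3.74, 2.16, 1.599, 5.64 and 5.12 CPM. Both groups held high and low libraries, and the log2 fold change was -0.17 (SE 0.35; edgeR adjusted p = 0.973), or 0.022 without RG2833 replicate 3.

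Rgs16, which shortens signalling by G proteins, was at 1.90, 2.25, 2.69, 2.08 and 1.41 CPM in untreated replicates 1 to 5 and at 2.001, 1.76, 1.34, 2.38 and 2.35 CPM in RG2833 replicates 1 to 5. Its 21 to 45 counts per library limit what can be read from it: the lowest count had an exact 95% Poisson interval of 13.0 to 32.1 and the highest one of 32.8 to 60.2. A log2 fold change of -0.07 (SE 0.22; edgeR adjusted p = 0.982) was measured, and it was 0.038 without untreated replicate 3 and also without RG2833 replicate 3.

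Synpo2, an actin-binding relative of synaptopodin, was at 2.54, 8.91, 2.03, 4.41 and 3.64 CPM in untreated replicates 1 to 5 and at 2.97, 2.33, 2.11, 2.63 and 3.25 CPM in RG2833 replicates 1 to 5. A single library, untreated replicate 2, lay far above the rest. Synpo2 had a log2 fold change of -0.70 (SE 0.36; edgeR adjusted p = 0.841; exact permutation p = 0.230), and with single libraries left out it ran from -0.88 (without untreated replicate 3) to -0.25 (without untreated replicate 2).

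**Figure D2:**
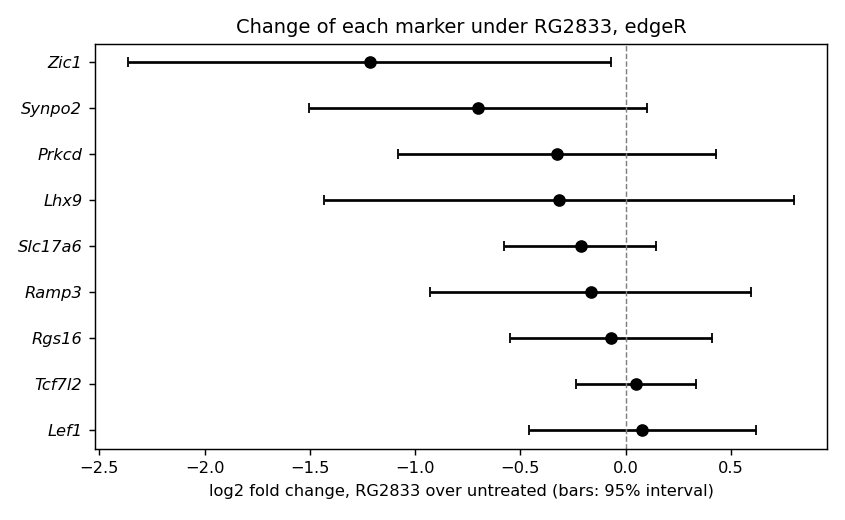
Log2 fold change of each marker in RG2833 over untreated rats from edgeR (points) with 95% intervals (bars); the dashed line marks no change. The interval of Zic1 runs from -2.36 to -0.07, before any adjustment over the genes tested, and the intervals of the other 8 markers include 0.

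The markers did not vary together as 1 group. Over the 36 pairs, Pearson's r of log2 CPM across the 10 libraries was above 0 for 24 and below 0 for 12, with a median of 0.254. Tcf7l2, Prkcd, Ramp3 and Rgs16, picked after their values were seen, ran in parallel, and their 6 pairs had r from 0.525 to 0.825. For Prkcd and Ramp3, r was 0.825 (permutation p = 0.00347, adjusted over the 36 pairs 0.0625) and Spearman's rho 0.867 (p = 0.00188, adjusted 0.0338); without the 2 libraries farthest from the median of Prkcd, r was 0.770. For Tcf7l2 and Rgs16, r was 0.725 (permutation p = 0.0177, adjusted 0.0795) and rho 0.879 (p = 0.00169, adjusted 0.0338); without the 2 farthest libraries, r was 0.825. No pair passed on r after adjustment, and these 2 pairs alone passed on rho.

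The order of the libraries shows who carried the pattern. Untreated replicate 4 was the highest library for 4 markers (Slc17a6, Prkcd, Zic1 and Ramp3) and untreated replicate 3 for 3 (Tcf7l2, Lef1 and Rgs16). RG2833 replicate 2 was among the 3 lowest libraries for 7 of the 9 markers and among the 3 highest for 0. For RG2833 replicate 3 these counts were 5 and 0. RG2833 replicate 5, in contrast, was among the 3 highest for 5 markers.

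**Figure D3:**
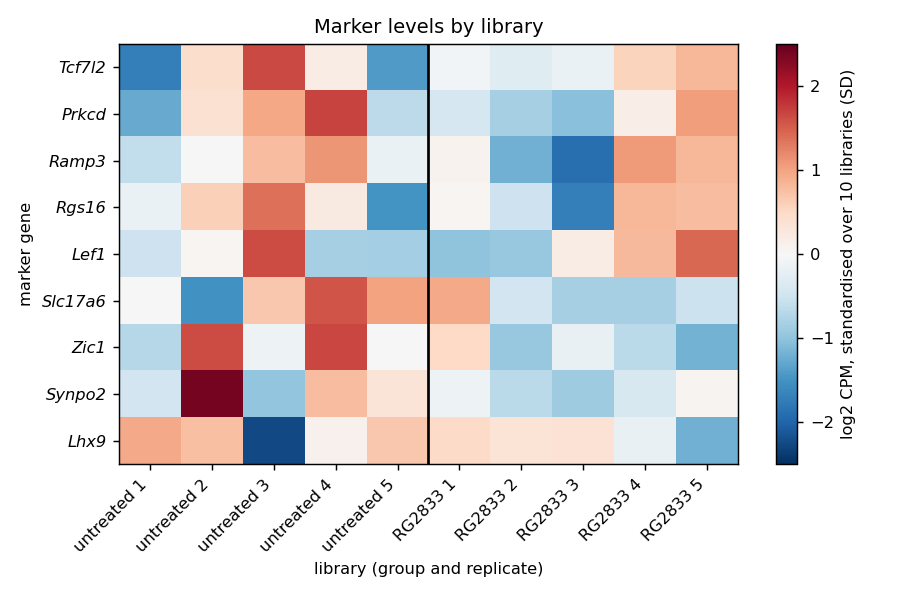
Log2 CPM of each marker (rows) in each library (columns), standardised over the 10 libraries and drawn from blue (low) to red (high); the vertical line divides untreated from RG2833. Untreated replicate 4 is red for Prkcd, Ramp3, Slc17a6 and Zic1, and Lhx9 is bluest in untreated replicate 3.

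Lhx9 ran against the 4 parallel genes and Lef1. Its r was -0.826 with Lef1 (permutation p = 0.00328, adjusted 0.0625; rho -0.576, p = 0.0879) and -0.805 with Tcf7l2 (permutation p = 0.0063, adjusted 0.0756; rho -0.770, p = 0.0132). Without the 2 libraries farthest from the median of the other gene, r was -0.395 with Lef1 and -0.626 with Tcf7l2, so the first of the pair rests largely on untreated replicate 3 and RG2833 replicate 5. Zic1 and Synpo2 had an r of 0.729 (permutation p = 0.0157, adjusted 0.0795; rho 0.515, p = 0.133), which was 0.0443 without untreated replicates 2 and 4 and so rests on them. Slc17a6, the defining transporter, had r from -0.355 to 0.338 with the other 8 markers.

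**Figure D4:**
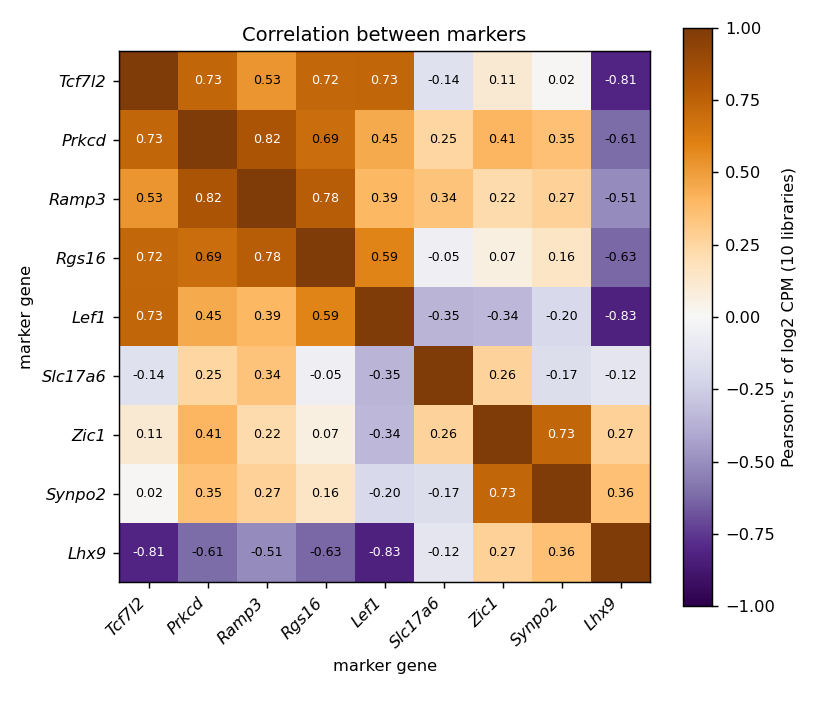
Pearson's r of log2 CPM across the 10 libraries for every pair of markers, from purple (-1) to orange (1), with the value printed in each cell. Tcf7l2, Prkcd, Ramp3, Rgs16 and Lef1 form the block of positive values, Zic1 and Synpo2 a second pair (0.73), and Lhx9 has negative values with all 5 genes of the block.

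The sequences just upstream of the start sites are shown for the 4 genes that ran in parallel and for Slc17a6, to set their promoters beside the transcription factors among the markers. They cover 250 bases before the start, 5′ to 3′ on the strand of the gene, from RefSeq on GRCr8, an assembly other than the rn6 build named for the counts. Capitals mark matches on either strand to AGGTCA, the half-site of ROR factors such as the product of Rora, or to TCAAAG, the core bound by Tcf7l2 and Lef1.
Tcf7l2, chr1:264791085-264791334, plus strand: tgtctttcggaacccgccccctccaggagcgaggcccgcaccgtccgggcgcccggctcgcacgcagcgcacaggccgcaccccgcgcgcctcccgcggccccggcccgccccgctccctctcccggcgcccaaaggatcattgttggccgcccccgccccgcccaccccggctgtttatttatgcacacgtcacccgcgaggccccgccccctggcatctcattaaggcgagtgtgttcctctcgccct
Prkcd, chr16:5805840-5806089, minus strand: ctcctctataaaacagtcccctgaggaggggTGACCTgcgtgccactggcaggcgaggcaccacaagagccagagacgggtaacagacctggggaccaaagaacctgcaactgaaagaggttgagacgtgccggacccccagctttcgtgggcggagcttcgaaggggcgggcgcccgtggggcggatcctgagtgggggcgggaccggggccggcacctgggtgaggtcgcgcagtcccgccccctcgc
Ramp3, chr14:85741064-85741313, plus strand: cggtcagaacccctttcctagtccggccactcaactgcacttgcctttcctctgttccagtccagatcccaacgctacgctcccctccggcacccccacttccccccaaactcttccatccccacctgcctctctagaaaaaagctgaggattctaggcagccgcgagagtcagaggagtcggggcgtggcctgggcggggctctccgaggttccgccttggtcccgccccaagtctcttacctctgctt
Rgs16, chr13:68437870-68438119, plus strand: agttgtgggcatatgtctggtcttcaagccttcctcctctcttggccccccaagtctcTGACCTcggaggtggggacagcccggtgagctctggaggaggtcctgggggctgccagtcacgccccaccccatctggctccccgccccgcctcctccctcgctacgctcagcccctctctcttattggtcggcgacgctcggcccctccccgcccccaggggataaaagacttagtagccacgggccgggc
Slc17a6, chr1:110348197-110348446, plus strand: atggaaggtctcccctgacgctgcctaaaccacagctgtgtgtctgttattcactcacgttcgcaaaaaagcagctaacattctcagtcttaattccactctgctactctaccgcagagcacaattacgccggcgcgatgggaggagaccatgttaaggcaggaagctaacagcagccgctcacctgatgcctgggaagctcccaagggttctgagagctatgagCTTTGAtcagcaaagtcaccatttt

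Promoter entries were matched for 8 of the 10 markers, and a window of 300 bases, from 250 before to 50 after the start, was searched on both strands. AGGTCA occurred once in Prkcd, at bases 32 to 37 of the window, and at 2 places in Rgs16, at bases 59 to 64 and 280 to 285. It occurred in 15.7% of all 27457 rat promoters of that length and in 11.8% of those of tested genes. TCAAAG occurred in Slc17a6, at bases 226 to 231, and in 15.9% of all promoters (11.7% of those of tested genes). TAATTA, the core bound by LIM homeodomain factors such as Lhx9, occurred in Synpo2 at bases 8 to 13 and in 5.35% of all promoters (2.11% of those of tested genes). None of the 3 motifs, which do not overlap each other in these windows, was in Tcf7l2, Lef1, Ramp3 or Rora. A match describes letters in the window only.

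Other genes of the thalamus gave a similar mixture. Of 15 such genes, 13 were tested; 10 had a log2 fold change below 0 and 3 above, with a median of -0.08, and 0 passed. Calb2, the calcium buffer calretinin of midline thalamus and of interneurons, was at 44.9 CPM in untreated replicate 4, while the remaining untreated rats had 11.7 to 19.5 CPM and RG2833 rats 8.40 to 13.8 CPM. Its log2 fold change was -1.03 (SE 0.35; edgeR adjusted p = 0.841), and -0.56 without untreated replicate 4. Six3, a factor of the reticular thalamus and striatum, had one of -2.16 (SE 0.93; edgeR adjusted p = 0.841), and with single libraries left out it ran from -3.94 (without RG2833 replicate 1) to -1.83 (without untreated replicate 2). Of the 13 these 2 alone had an unadjusted p under 0.05. With single libraries left out, Calb2 had one in 10 of 10 fits, and that of Six3 was above 0.05 in 7 of 10. Six3 was at 0.519, 4.97, 2.81, 4.71 and 0.760 CPM in untreated replicates 1 to 5, while RG2833 replicate 1 had 2.39 CPM and the other 4 RG2833 libraries 0 to 0.320 CPM. Untreated replicates 1 and 5 lay inside the RG2833 range. The most abundant genes of the list were close to 0: Adarb1 (0.08), Cacna1g (0.07), Ntng1 (-0.11) and Vav3 (-0.08). Untreated replicate 4 was the highest library for 4 of the 13 (Tnnt1, Slitrk6, Calb2 and Cbln2), as it was for 4 of the 9 markers. Gbx2 and Shox2, factors that specify thalamic neurons in development, had 0 to 1 and 0 to 5 counts per library and were not tested.

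Genes of the medial habenula, which borders the thalamus under the hippocampus, were mostly too low to test. Of 10 genes, 8 were in the table and 2 were tested: Gng8 (log2 fold change -0.36, SE 0.20) and Lrrc55 (-0.38, SE 0.24), neither of which passed. Gpr151, a receptor that defines habenular neurons, was at 0.0577 to 0.320 CPM.

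The Wnt pathway is the one in which Tcf7l2 and Lef1 act. Of its 24 listed genes, 20 were in the table and 19 tested; 13 had a log2 fold change above 0 and 6 below, with a median of 0.08, and 0 had an unadjusted p under 0.05. Ctnnb1, which encodes beta-catenin, had a log2 fold change of 0.11 (SE 0.07), the destruction complex scaffold Apc 0.27 (SE 0.13), the co-activator Bcl9l 0.13 (SE 0.13) and the secreted Dkk3 -0.09 (SE 0.29). Axin2, a feedback target of the pathway, had one of -0.04 (SE 0.12).

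Paralogues and partners of the markers were described the same way. Of 26 genes, 22 were tested; 9 were above 0 and 13 below, with a median of -0.06, and 0 passed. Lhx2, the LIM homeodomain factor of hippocampal patterning, averaged 101 ± 6.83 CPM without the drug and 122 ± 8.65 CPM with it, a log2 fold change of 0.27 (SE 0.07; edgeR adjusted p = 0.841), with overlapping ranges. Prkcb, another isoform of protein kinase C, had one of 0.21 (SE 0.09), and Rorb, the relative of Rora, one of 0.47 (SE 0.21). Those 3 had an unadjusted p under 0.05; with single libraries left out, Lhx2 had one in 10 of 10 fits, Prkcb in 3 and Rorb in 2. Slc17a7, the transporter that hippocampal neurons use, had a log2 fold change of -0.02 (SE 0.19), and Prkce, a further isoform of protein kinase C, one of -0.05 (SE 0.21).

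For 6 markers, 1 list each of another cell type or region was set beside the marker; Tcf7l2 was not set beside astrocytes, nor Zic1 beside the septum. Lef1 followed the endothelium: with the mean log2 CPM of 10 endothelial genes, r was 0.860 (permutation p = 0.00203, adjusted over 6 such relations 0.0122) and rho 0.624 (p = 0.0607, adjusted 0.176). Without untreated replicate 3 and RG2833 replicate 5, the libraries farthest from the median of the list, r was 0.626. The summed level of the list ran from 408 to 763 CPM in untreated and from 501 to 828.6 CPM in RG2833 rats. Of its 10 tested genes, 9 had a log2 fold change above 0. The tight-junction gene Cldn5 was at 148 CPM in untreated replicate 3 and 164 CPM in RG2833 replicate 5, against 82.7 to 138 CPM elsewhere. Untreated replicate 3 and RG2833 replicates 4 and 5 were the highest libraries for Lef1 and for the mean log2 CPM of this list. They were also the highest for the astrocyte and neocortical lists and the lowest for the CA3 and CA2 list. Lef1 was not tested against those lists, so the relation is not shown to be particular to endothelium.

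Zic1 beside 9 meningeal genes gave an r of 0.623 (permutation p = 0.0467, adjusted 0.140; rho 0.576, p = 0.0879), which was 0.143 without untreated replicate 2 and RG2833 replicate 1. All 9 tested genes of this list had a log2 fold change below 0 (median -0.94), none passed in edgeR, and untreated replicate 2 was the highest library for each of them. Without that library 4 were below 0 and 5 above, with a median of 0.09, and 0 passed. Its summed level was 69.9 to 1271 CPM in untreated and 62.7 to 810 CPM in RG2833 rats; the collagen gene Col1a2 was at 162 CPM in untreated replicate 2, at 21.4 CPM in RG2833 replicate 1 and at 12.2 CPM in untreated replicate 4. Of the pair of libraries high in Zic1, 1 was therefore rich in meningeal RNA and the other was not. The part of meninges in the Zic1 difference was not tested beyond these values.

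Like that of Zic1 and the meninges, the other 4 relations did not pass. For Tcf7l2 and newly formed oligodendrocytes, r was 0.582 (permutation p = 0.0771, adjusted 0.154; rho 0.588, p = 0.0811), and 0.225 without the 2 farthest libraries. For Synpo2 and smooth muscle, r was 0.564 (permutation p = 0.104, adjusted 0.156; rho 0.103, p = 0.785), and it turned to -0.448 without untreated replicates 1 and 2. For Rgs16 and choroid plexus, r was 0.327 (permutation p = 0.366, adjusted 0.439; rho 0.382, p = 0.279) and 0.529 without the 2 farthest libraries. For Slc17a6 and the subiculum, where this transporter is also made, r was -0.0876 (permutation p = 0.806; rho -0.248, p = 0.491) and -0.573 without the 2 farthest libraries.

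**Figure D5:**
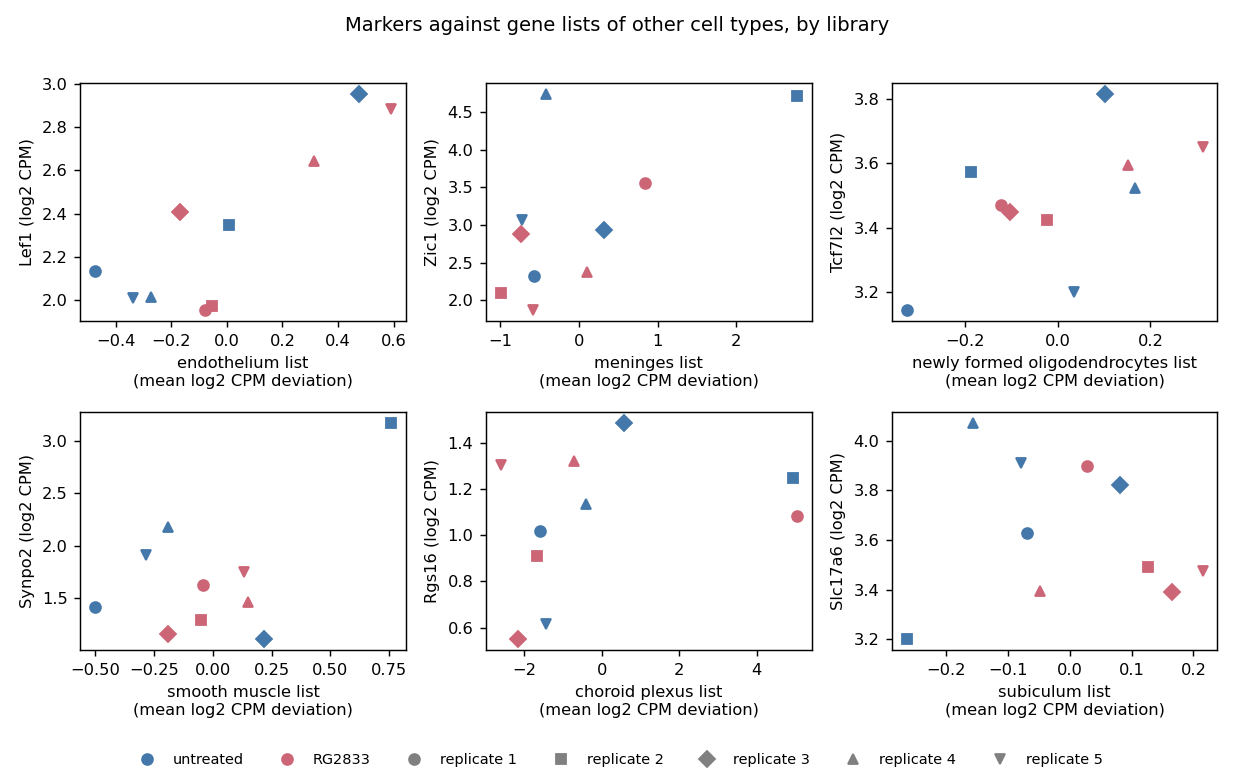
Log2 CPM of 6 markers (vertical axes) against the mean log2 CPM deviation of a gene list of another cell type or region (horizontal axes), with 1 point per library, untreated in blue and RG2833 in red. Lef1 climbs with the endothelial list (r 0.860), while Zic1 is high in untreated replicate 4 without the meningeal list being high there.

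Markers of the other tissues the dissection could hold were counted in the same fit, and 0 genes of any list passed. Over all genes tested, 46.5% had a log2 fold change above 0. Log2 fold changes were above 0 for 9 of 9 astrocyte genes (median 0.33), 6 of 6 CA1 pyramidal genes (0.21), 5 of 6 subicular (0.29), 5 of 7 newly formed oligodendrocyte (0.13), 9 of 15 choroid plexus (0.14), 5 of 10 striatal (0.02) and 2 of 5 smooth muscle genes (-0.09). They were above 0 for 4 of 9 neocortical genes (-0.02), 4 of 10 genes of CA3 and CA2 (-0.09), 3 of 8 interneuron (-0.11), 2 of 8 myelin (-0.18) and 1 of 5 dentate granule genes (-0.16). An unadjusted p under 0.05, which 5.66% of all genes tested had (2.94% higher, 2.71% lower), was reached by 3 of 8 interneuron genes (1 higher, 2 lower), 2 of 9 astrocyte and 2 of 9 neocortical genes (all higher), and by 1 gene each of the endothelial, CA1 and subicular lists (higher) and of the meningeal, smooth muscle, dentate and striatal lists (lower). Rorb is counted in both the subicular and the neocortical list.

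The most abundant genes of these lists had the following log2 fold changes. In glia they were 0.19 for Gfap, the astrocyte filament, 0.42 for Aldoc, 0.24 for Mbp, a protein of myelin, and 0.26 for Bcas1 and 0.24 for Tns3 of newly formed oligodendrocytes. In neurons they were 0.47 for Mpped1 and 0.11 for Wfs1 of CA1, 0.03 for Nnat and -0.26 for Cpne4 of CA3 and CA2, -0.24 for C1ql2 and 0.13 for Pdzd2 of the dentate gyrus, and 0.34 for Fn1 and 0.08 for Tle4 of the subiculum. Striatal Ppp1r1b and Penk, an enkephalin precursor, had 0.09 and -0.40, neocortical Etv1 and Cux2 0.18 and -0.02, and Gad1 and Slc32a1, which make and load GABA, -0.10 and -0.18. At the vessels and surfaces they were 0.37 for Slco1c1 and 0.25 for Cldn5 of endothelium, -0.37 for Tagln and -0.10 for Myh11 of smooth muscle, -0.24 (SE 1.29) for Igf2 and -1.82 (SE 0.85) for Col1a2 of meninges, which were 1.87 (SE 1.11) and -0.015 (SE 0.36) without untreated replicate 2, and 0.19 for Ttr and -0.29 for Enpp2 of choroid plexus. None of these genes passed in edgeR.

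Ranked by likeness to the mean of the 9 standardised markers over the 10 libraries, the nearest of 12152 other genes were Fmo5 (r 0.962), Pidd (0.926), Tubb6 (0.920), Emp2 (0.919), Plcb4 (0.912), Wfikkn1 (0.910), Sp1 (0.909), Hrasls (0.906), Traf3ip1 (0.903) and Mybl1 (0.903). Plcb4, a phospholipase C that thalamic relay neurons make in abundance, was at 28.0 CPM in untreated replicate 4, 26.7 CPM in RG2833 replicate 5 and 24.5 CPM in untreated replicate 2, and at 15.4 CPM in RG2833 replicate 2, its lowest library. These r values come from the top of a ranking and describe the libraries only. The markers differ in how well that mean stands for them: with the mean of the other 8, r was 0.867 for Prkcd and 0.778 for Ramp3, but 0.105 for Lef1, 0.003 for Slc17a6 and -0.578 for Lhx9.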

How the data were processed

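The members and gene lists were chosen with earlier results of these data known. The authors deposited expected counts from RSEM, 11.6% of them not whole; the submitters' processing notes name bcl2fastq 2.17, Bowtie2 2.1.0, RSEM 1.2.15, edgeR and the rn6 build, and the annotation and strand setting are not given in the sources used here. The second table they deposited is a signal, CPM after TMM scaling (trimmed mean of M-values). Up to 100 reads, 100% of its values above 0 were whole multiples of 1 read within 0.05 reads, and in each library at least 99.91% of the recovered reads equalled the rounded expected counts. CPM printed here was recomputed from those counts, and over the markers was 0.971 to 1.01 times the deposited value.

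Expected counts were rounded and fitted in edgeR 4.0.16 (R 4.3.3): filterByExpr (minimum count 10, total 15), TMM, robust quasi-likelihood F test, Benjamini-Hochberg adjustment over the 12161 genes tested, threshold 0.05, log2 CPM with a prior count of 2. Standard errors came from the F statistic. Totals ran from 15118203 to 18533520 counts per library, and the common biological coefficient of variation was 21%. In simulated counts 80.5% of 200 genes changed 2-fold were recovered among 12108, with 6 other calls. Those 200 were drawn at random from all genes tested, so the share is not the power to call a marker. Single values were compared by two-sided exact permutation over 252 regroupings, whose smallest p is 0.00794; correlations used 100000 permutations, two-sided. The design names 5 treated and 5 untreated rats. Replicate numbers did not pair the rats. All markers were named; of the other thalamic, habenular, Wnt and paralogue lists, the 4 most abundant genes and those with an unadjusted p under 0.05; of the lists of other cell types, the 2 most abundant. Some genes that this rule names are not reported here. Axin2, Prox1, Gpr151, Gbx2, Shox2, Plcb4's levels, Tnnt1, Slitrk6, Cbln2 and the Zic relatives were picked after their values were seen. Alternatives were DESeq2 1.42.0, limma-voom (limma 3.58.1) with sample weights, other scaling and filters, and leaving libraries out.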

Additional observations from a re-analysis of the deposited data

Results flagged for a closer look

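Within each group of 5 rats the highest and lowest log2 CPM of each marker was compared with its nearest neighbour, and 2 of 18 sets had a gap above 0.71 of the range, where chance gives 0.9. Slc17a6 in RG2833 replicate 1 was high, with a gap of 0.799 of the range (14.8 CPM against 10.4 to 11.1 CPM in the other 4). That library also held the highest Ttr level. Lhx9 in untreated replicate 3 was low, with a gap of 0.740 of the range (0.657 CPM against 4.04 to 7.39 CPM in the other 4). The same library was lowest for Prox1 and Slc17a7 and highest for Tcf7l2, Lef1 and Rgs16.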

How the results depend on the processing

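Over 18 alternatives, 155 of 162 log2 fold changes of single markers kept their direction and stayed short of the threshold, and 7 changed sign, all close to 0. In the leave-one-out fits Tcf7l2 ran from -0.023 (untreated replicate 1 left out; -0.012 for replicate 5) to 0.150, Lef1 from -0.065 (RG2833 replicate 5) to 0.288, Ramp3 from -0.381 to 0.022 (RG2833 replicate 3) and Rgs16 from -0.182 to 0.038 (replicate 3 of either group). Rgs16 was 0.010 in limma-voom with sample weights. The count of all genes past the threshold was 0 in edgeR and 6 in DESeq2, of which 0 were markers. It was 0 in each fit that left out 1 library. At an unadjusted p under 0.05 edgeR gave 688 genes, limma-voom 1266, and the leave-one-out fits from 375 (without RG2833 replicate 4) to 1732 (without untreated replicate 3). The median log2 fold change of the 9 markers ran from -0.28 to -0.07 in the leave-one-out fits, the latter without untreated replicate 4, and was -0.30 without both libraries rich in choroid plexus RNA. The causes were not tested. With the replicate number as a block, 0 genes passed, 401 had an unadjusted p under 0.05 and Zic1 had a log2 fold change of -1.05 (edgeR adjusted p = 0.999). Deviations of same-numbered rats correlated from -0.487 to -0.034, and 0 of 5 untreated rats correlated best with their own number. Of the 10 genes nearest to the marker mean, 10 were shared with a prior count of 0.5, 2 with the ranking within untreated and 1 with that within RG2833 libraries. Counts of 11 to 510 per marker and library limit precision.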

Other observations

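Genes nearest to single markers were listed by a rule added after the values were seen. They are the 3 with the highest Pearson's r of log2 CPM over the 10 libraries, given as a description of these libraries. Those of Tcf7l2, Lef1 and Rgs16 are not reported here. For Lhx9 they were Acan (0.995), Adam19 (0.985) and Hsph1 (0.983). Acan encodes aggrecan, the core proteoglycan of perineuronal nets, and was at 4.18 CPM in untreated replicate 3, 5.95 CPM in RG2833 replicate 5 and 7.95 to 11.0 CPM in the other 8 libraries, the order of Lhx9 at the low end. For Prkcd they were Hrasls (0.940), Dpp4 (0.939) and Smarca2 (0.926). For Ramp3 they were Opn3 (0.951), Traf3ip1 (0.947) and Pcp4l1 (0.942).

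For Zic1 the nearest were Prpf4b (0.962), Ropn1l (0.944) and Mtrf1l (0.939). For Synpo2 they were Omd (0.929), Cp (0.915) and Serping1 (0.901), each highest in untreated replicate 2; Omd encodes the matrix proteoglycan osteomodulin and was at 9.07 CPM there. For Slc17a6 they were Farp2 (0.924), Cdc20 (0.918) and Reep5 (0.827).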
